A study of Mus musculus with 21 samples.

Results

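The miR-15, miR-16 and miR-195 family is a group of microRNAs (miRNAs) that share 1 seed, the stretch at bases 2 to 8 with which a miRNA pairs to its targets. Its 5 members here, miR-15a-5p, miR-15b-5p, miR-16-5p, miR-195a-5p and miR-497a-5p, were taken by name from small-RNA-seq tables of mouse pituitary. They are 5 of 1909 miRNAs listed for a young cohort and 5 of 1841 listed for an older cohort, where miR-497a-5p is listed under its earlier name, miR-497-5p. In these lists 1388 and 743 miRNAs had a count in at least 1 library.

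The study asked what happens in mice when *Zeb1*, a gene for a transcriptional repressor, can no longer be repressed by miR-200a and miR-200b. Female C57BL/6J mice carried no altered allele (Zeb1_WT, WT below), 1 altered allele (Zeb1_200H, 200H below) or 2 altered alleles (Zeb1_200M, 200M below). In the altered allele, the sites for these miRNAs in the 3′ UTR of *Zeb1* are mutated in the germ line, so every cell of the mouse carries the change. Each library came from the whole pituitary, which mixes many cell types.

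The young cohort was 8 to 12 weeks old and virgin, and it comprised 3 WT, 4 200H and 4 200M libraries. The older cohort was 28 to 36 weeks old and had been through a breeding trial, and it comprised 4 WT, 3 200H and 3 200M libraries. The paper reports that most females with both alleles altered bore no litters in that trial. Litter history therefore went along with genotype in the older cohort, and the labels do not give the litters of each mouse. The labels carry replicate numbers 1, 2 and 4 for young WT, 1, 3 and 4 for older 200H and 1, 2 and 3 for older 200M. Values listed below for a group follow the order of these numbers. The allele was made in embryonic stem cells and crossed onto C57BL/6J, and 2 targeted clones were carried to mice. The labels do not say from which clone a library came.

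Young libraries held 3816917, 10806313 and 9029142 counted reads in WT, 8551806 to 10266419 in 200H and 8502878 to 10515664 in 200M. Older libraries held 84093 to 191650 counted reads in WT, 60037 to 131324 in 200H and 87665 to 124190 in 200M. Age, breeding, RNA input, sequencing instrument and the miRNA list used for matching all differed between the cohorts, so these cannot be told apart in any comparison of their levels. Levels are given as CPM, a count scaled to the counted reads of its library.

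Family members are made from pairs of neighbouring hairpins, and miR-16-5p comes from a pair of separate loci. The family represses many genes that drive the cell through its division cycle, among them cyclins, and it is best known for the loss of miR-15a and miR-16-1 in chronic lymphocytic leukaemia. In the pituitary, lower miR-15a and miR-16 levels have been described in adenomas.

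The labelled tissue was checked against miRNAs that define endocrine pituitary, miR-7a-5p and miR-375-3p. Together they held between 182481 and 328424 CPM in all 21 libraries, and one of them was the most abundant miRNA of each library.

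One library stood apart from the others. Young WT replicate 1 held the fewest reads of its cohort, and its TMM factor, edgeR's scaling for the make-up of a library, was 0.616 against 0.943 to 1.12 in the other 10. The top 3 miRNAs made up 36.9% of this library, against 24.5% to 28.1% elsewhere in the cohort. Young fold changes, calls and CPM ranges against WT are therefore given with and without it. In the older cohort, TMM factors were 0.893 to 0.955 in WT and 1.02 to 1.09 in the mutants, so a mutant level that is higher in CPM can be equal after this scaling.

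The 5 mature sequences are printed because they show what the members share and what tells their reads apart. All were matched in the RefSeq miRNAs of build GRCm38.p6, and capitals mark bases 2 to 8, the seed.

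miR-15a-5p: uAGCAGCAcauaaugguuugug

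miR-15b-5p: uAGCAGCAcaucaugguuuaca

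miR-16-5p: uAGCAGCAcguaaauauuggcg

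miR-195a-5p: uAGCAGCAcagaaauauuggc

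miR-497a-5p: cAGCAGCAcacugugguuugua

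All 5 carry the same seed, which 10 distinct names in the mouse table share (0.596% of names). Outside the seed they divide into types: miR-16-5p and miR-195a-5p differed at 2 of the bases used for matching, and miR-15a-5p and miR-15b-5p at 1. The most distant pair, miR-16-5p and miR-497a-5p, differed at 9 of the first 19 bases, which were matched in the young cohort, and at 8 of the first 18, which were matched in the older cohort. Each member could therefore be counted apart from the others, but miR-15a-5p and miR-15b-5p were separated by a single base.

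In GRCm38 the hairpins lie in 3 pairs. *Mir15a* (ENSMUSG00000093007) spans 61632027 to 61632110 on the minus strand of chromosome 14, and *Mir16-1* (ENSMUSG00000092995) spans 61631880 to 61631972. This pair covers 231 bp inside the noncoding gene *Dleu2*, with *Mir15a* in an intron and *Mir16-1* in an exon of at least 1 transcript. *Mir15b* (ENSMUSG00000065580) spans 69009772 to 69009835 on the plus strand of chromosome 3, and *Mir16-2* (ENSMUSG00000065606) spans 69009902 to 69009996. These cover 225 bp in an intron of *Smc4*, which encodes a subunit of condensin. *Mir497* (ENSMUSG00000105220) spans 70234717 to 70234800 on the plus strand of chromosome 11, and *Mir195a* (ENSMUSG00000065411) spans 70235042 to 70235135, together covering 419 bp. Both *Mir16-1* and *Mir16-2* give the same miR-16-5p, so reads of miR-16-5p cannot be assigned to a locus.

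Summed over the 5 members, the family took 1.81% to 2.29% of counted reads in the 11 young libraries and 1.88% to 2.58% in the 10 older ones. In the young cohort the sum was 22918, 18321 and 18127 CPM in WT. It was 19469, 19793, 19549 and 19874 CPM in 200H and 19408, 19815, 20154 and 20625 CPM in 200M. WT replicate 1 was the highest of the 11, and the other WT libraries were the lowest, so in CPM the mutant libraries all lay inside the WT range. Means were 19789 ± 2712 CPM in WT (SD, n = 3), 19671 ± 193 in 200H (SD, n = 4) and 20000.4 ± 516 in 200M (SD, n = 4). After TMM scaling WT stood at 37228, 19426 and 18490, and the means were 25048 in WT, 18630.1 in 200H and 18349 in 200M, with some 200M and 200H libraries below all WT libraries.

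Older libraries held a sum of 21741, 18773.5, 21857 and 21774 CPM in WT, 24227, 25801 and 22159 in 200H, and 24240.0, 23182 and 23410.1 in 200M. All 6 mutant libraries were above all 4 WT libraries on this scale. The means were 21036 ± 1509 CPM in WT (SD, n = 4), 24062 ± 1826 in 200H (SD, n = 3) and 23611 ± 557 in 200M (SD, n = 3). After TMM scaling the means were 22868, 23191 and 21976, so the groups overlapped and the 200M mean lay below the WT mean. A sum over members was not tested.

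The members were unequal in level. MiR-16-5p ranked 17th of 1909 listed miRNAs by mean CPM in the young cohort and 16th of 1841 in the older cohort, and miR-15a-5p ranked 47th and 46th. MiR-15b-5p ranked 89th and 92nd, miR-195a-5p 95th and 76th, and miR-497a-5p 131st and 77th. MiR-16-5p made up 62.7% to 66.1% of the family sum in young libraries and 57.9% to 65.1% in older ones. MiR-16-5p was first and miR-15a-5p second in all 21 libraries. In 9 of 11 young libraries the order went on with miR-15b-5p, miR-195a-5p and miR-497a-5p, and miR-195a-5p passed miR-15b-5p in the other 2. In the older cohort the last 3 places changed between libraries, and mean CPM over the 10 libraries was 1660.0 for miR-195a-5p and 1659 for miR-497a-5p.

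**Figure D1:**
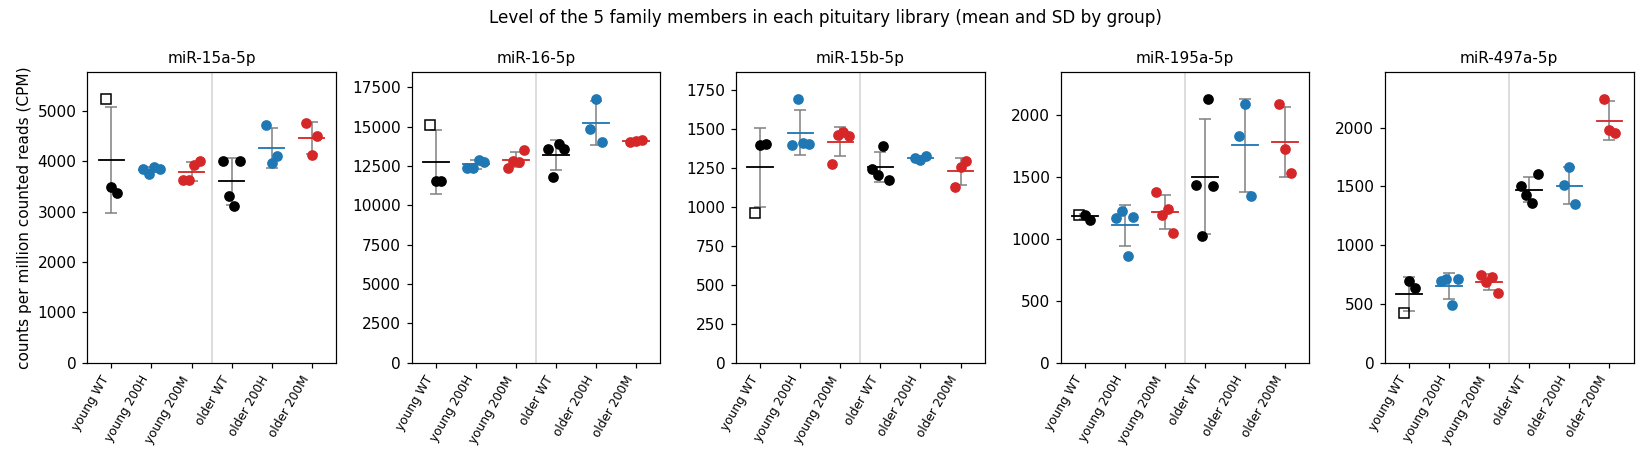
Level of each member in each library, in CPM on linear axes from 0, by cohort and genotype. Points are libraries, horizontal lines are group means and grey bars are SD. Open squares are young WT replicate 1, which held 5239 CPM of miR-15a-5p against 3359 to 3996 in the other young libraries. MiR-497a-5p is higher in older than in young libraries, where age, library preparation and the list used for matching differ together.

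The genotypes were compared pair by pair within each cohort with edgeR's quasi-likelihood F test on raw counts. The Benjamini-Hochberg adjustment of p took in every miRNA that passed a filter on low counts, and a miRNA is called where the adjusted p is below 0.05. All 5 members passed the filter in each of the 6 comparisons. The comparisons of 200M and of 200H with WT share their WT libraries, and their values are given side by side for that reason alone.

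For 200M against WT in the young cohort, edgeR called 0 of 5 members, while it called 44 of 678 miRNAs (6.49%). For 200H against WT it called 0 of 5, against 34 of 672 (5.06%), and for 200M against 200H 0 of 5, against 15 of 675 (2.22%). In the older cohort it called 0 of 5 members for 200M against WT, where 99 of 276 miRNAs were called (35.9%). It called 0 of 5 for 200H against WT, where 32 of 267 were called (12.0%), and 0 of 5 for 200M against 200H, where 3 of 274 were called (1.09%). At an unadjusted p below 0.05, edgeR counted 1 member, miR-497a-5p, in the older comparison of 200M with 200H, and 0 members in each of the other 5 comparisons. Over all miRNAs tested this was 40 of 274 (14.6%) for older 200M against 200H. It was 22.1%, 19.5% and 9.33% for young 200M against WT, 200H against WT and 200M against 200H, and 44.6% and 27.3% for older 200M and 200H against WT. DESeq2 and limma voom with sample quality weights also called 0 members in each comparison. Over all miRNAs they called 87 and 184 in young 200M against WT, and 66 and 152 in young 200H against WT. In young 200M against 200H they called 20 and 15. For older 200M against WT, DESeq2 called 73 and voom called more than the 99 of edgeR. They called 25 and 37 in older 200H against WT, and 3 and 5 in older 200M against 200H. At an unadjusted p below 0.05, DESeq2 counted 1 member in young 200H against WT and 1 in older 200M against 200H, and voom counted 1 in young 200M against WT and 1 in older 200M against 200H. The matching shares of all miRNAs are not given for these tools, so these member counts stand without a background. Over all settings, those with a library left out included, more members fell below an unadjusted p of 0.05 at least once. Against young WT these were miR-15a-5p and miR-16-5p in both mutants, miR-15b-5p in 200M and miR-195a-5p in 200H. In older 200M against WT they were miR-15b-5p, miR-16-5p and miR-497a-5p. The share of all miRNAs below that p at least once was not counted, so these names stand without a background as well.

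MiR-15a-5p, from the *Dleu2* locus, stood at 5239, 3482 and 3359 CPM in young WT. It stood at 3853, 3752, 3874 and 3837 CPM in 200H and at 3626, 3624, 3916 and 3996 CPM in 200M. WT replicate 1 was far above every other library, the other WT libraries were below all mutant ones, and the groups overlapped. The log2 fold change was −0.59 for 200M against WT (95% interval −1.28 to 0.11, adjusted p = 0.286 by edgeR and Benjamini-Hochberg). For 200H against WT it was −0.52 (−1.23 to 0.18, adjusted p = 0.357 by edgeR and Benjamini-Hochberg). Without WT replicate 1 the values were −0.01 (−0.19 to 0.17) and 0.03 (−0.12 to 0.19), so this 1 library made up nearly the whole of both differences.

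MiR-16-5p, the most abundant member, was counted at 15105, 11557 and 11572 CPM in young WT. The 200H libraries held 12349, 12408, 12915 and 12754 CPM, and the 200M libraries 12384, 12856, 12786 and 13538 CPM. Again WT replicate 1 was the highest library and the other WT libraries were the lowest. The log2 fold changes against WT were −0.46 in 200M (95% interval −1.04 to 0.13) and −0.44 in 200H (−1.03 to 0.15). Without WT replicate 1 both were −0.00, with intervals of −0.15 to 0.15 and −0.14 to 0.14, although all 8 mutant libraries then lay above both WT libraries in CPM. With all young libraries scaled together, TMM factors were 0.943 and 0.980 in these WT libraries and 1.04 to 1.12 in the mutants.

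MiR-15b-5p comes from the *Smc4* locus. Its levels were 958, 1394 and 1404 CPM in young WT, 1398, 1692, 1407 and 1399 in 200H, and 1275, 1462, 1479 and 1453 in 200M. In CPM, WT replicate 1 was the lowest of all 11 libraries and 200H replicate 2 was the highest. With TMM factors of all young libraries scaled together, WT replicate 1 stood at 1557, above the other WT libraries at 1478 and 1433. Against WT the log2 fold changes were −0.20 in 200M (95% interval −0.48 to 0.08) and −0.09 in 200H (−0.38 to 0.19), and without WT replicate 1 they were −0.14 and −0.06.

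MiR-195a-5p, from the chromosome 11 locus, stood at 1194, 1192 and 1153 CPM in young WT. It stood at 1170.0, 1227, 861 and 1173 CPM in 200H and at 1375, 1189, 1242 and 1048 CPM in 200M. In CPM the WT libraries were nearly equal, 200H replicate 3 was the lowest library, and the groups overlapped. After TMM scaling WT replicate 1 stood at 1939, against 1264 and 1176 in the other WT libraries. Against WT it had log2 fold changes of −0.39 in 200M (95% interval −0.85 to 0.06) and −0.48 in 200H (−0.96 to 0.01), and without WT replicate 1 they were −0.11 and −0.21.

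MiR-497a-5p, from the same locus, was at 422, 696 and 638 CPM in young WT, at 699.6, 713, 493 and 711 in 200H, and at 748, 684, 730.3 and 589.7 in 200M. In CPM, WT replicate 1 and 200H replicate 3 were the lowest, and the groups overlapped. After TMM scaling WT replicate 1, at 686, lay between the other WT libraries at 738 and 651. The log2 fold changes against WT were −0.14 in 200M (95% interval −0.45 to 0.17) and −0.16 in 200H (−0.52 to 0.21), and −0.12 and −0.16 without WT replicate 1.

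Taken as a list, the members had a median log2 fold change of −0.39 for young 200M against WT, beside −0.00 over all 678 miRNAs tested. For young 200H against WT the medians were −0.44 and 0.01. Without WT replicate 1 the medians of the members were −0.11 and −0.06, beside 0.04 and 0.01 over all miRNAs tested. In that fit edgeR called 0 of 5 members in either comparison, while it called 168 of 703 miRNAs in 200M (23.9%) and 151 of 699 in 200H (21.6%), and the members counted at an unadjusted p below 0.05 were 0 in both. CPM ranges of 0 of 5 members were apart in young 200M against WT, beside 238 of 678 miRNAs (35.1%), and of 0 of 5 in young 200H against WT, beside 223 of 672 (33.2%). With WT replicate 1 left out, ranges of 2 of 5 members, miR-15a-5p and miR-16-5p, were apart and higher in both mutants. Of all miRNAs, 253 of 703 in 200M (36.0%) and 230 of 699 in 200H (32.9%) were apart and higher. In either direction 337 (47.9%) and 310 (44.3%) were apart.

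The comparison between the mutants of the young cohort holds no WT library. The log2 fold changes of 200M against 200H were −0.07 for miR-15a-5p (95% interval −0.20 to 0.06), −0.02 for miR-16-5p (−0.13 to 0.09) and −0.11 for miR-15b-5p (−0.27 to 0.05). They were 0.08 for miR-195a-5p (−0.16 to 0.32) and 0.02 for miR-497a-5p (−0.23 to 0.27). Every interval included 0, and none reached beyond 0.32 in either direction. The median was −0.02 for the members and −0.01 for all 675 miRNAs, and CPM ranges were apart for 0 of 5 members beside 53 of 675 miRNAs (7.85%).

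Counts were far lower in the older cohort, with 78 to 2602 counts per member and library. MiR-15b-5p in 200H replicate 3 rested on 78 counts, 1299 CPM with a 95% Wilson interval of 1041 to 1621 CPM, where the same interval in young WT replicate 2 was 1372 to 1417 CPM. Such intervals cover counting error only. The spread between the 4 older WT libraries was 7.12% of the mean for miR-497a-5p, and counting error alone gives 7.34% at this depth. For miR-15b-5p these were 7.72% and 8.11%. The other 3 members spread by more than counting error gives: miR-195a-5p by 30.7% against 7.52%, miR-15a-5p by 13.0% against 4.66%, and miR-16-5p by 7.09% against 2.47%. In older 200H and 200M some spreads were above counting error and others far below it. MiR-16-5p in 200M stood at 0.363% against 2.55%, and miR-15b-5p in 200H at 0.992% against 9.20%. Spreads of so few libraries are themselves uncertain, and nothing further is read from them.

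MiR-497a-5p stood at 1501, 1431, 1356 and 1602 CPM in older WT, 1509, 1666 and 1348 in 200H, and 2247, 1981 and 1954 in 200M. All 3 of the 200M libraries were above all 7 of the others, and WT and 200H overlapped. The log2 fold change was 0.42 for 200M against 200H (SE 0.160, 95% interval 0.10 to 0.73, adjusted p = 0.170 by edgeR and Benjamini-Hochberg), which fails the correction although the unadjusted p from edgeR is 0.00951. Over the other settings of that fit, adjusted p values of edgeR, DESeq2 and voom, each with Benjamini-Hochberg adjustment, ran from 0.115 to 0.853. For 200M against WT it was 0.24 (−0.01 to 0.48, adjusted p = 0.129 by edgeR and Benjamini-Hochberg) and for 200H against WT −0.16 (−0.46 to 0.14). Its partner on chromosome 11 did not show that order.

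MiR-195a-5p was at 1430.0, 1018, 2129 and 1424 CPM in older WT, 1827, 2082 and 1348 in 200H, and 2087, 1723 and 1531 in 200M. The 3 groups overlapped, and the highest library was WT replicate 3. Fitted log2 fold changes against WT were 0.02 in 200M (95% interval −0.33 to 0.38) and 0.05 in 200H (−0.36 to 0.45).

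MiR-16-5p was at 13562, 11822, 13878 and 13577 CPM in older WT, 14863, 16789.6 and 14034 in 200H, and 14031, 14107 and 14128 in 200M. All mutant libraries were above all WT libraries in CPM, the nearest being 14031 in 200M and 13878 in WT. On the TMM scale this difference was not found, with log2 fold changes of −0.14 for 200M against WT (95% interval −0.33 to 0.05) and 0.03 for 200H against WT (−0.19 to 0.25).

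MiR-15a-5p was at 4005, 3300.1, 3104 and 3997 CPM in older WT, 4718, 3964 and 4104 in 200H, and 4745, 4115 and 4503 in 200M. The 200M libraries were above the WT ones in CPM, and 200H overlapped WT. The log2 fold changes against WT were 0.06 in 200M (95% interval −0.17 to 0.29) and 0.07 in 200H (−0.21 to 0.34).

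MiR-15b-5p was at 1242, 1202, 1391 and 1174 CPM in older WT, 1309, 1299 and 1325 in 200H, and 1129, 1256 and 1295 in 200M. The 200M libraries lay below the 200H libraries by a margin smaller than their counting error, and both overlapped WT. The log2 fold change for 200M against WT was −0.25 (95% interval −0.51 to 0.01, adjusted p = 0.136 by edgeR and Benjamini-Hochberg), and for 200H against WT it was −0.10 (−0.40 to 0.20).

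By CPM alone, the ranges of 3 of 5 members (miR-15a-5p, miR-16-5p and miR-497a-5p) were apart and higher in older 200M than in WT, where 92 of 276 miRNAs were (33.3%). In 200H against WT this held for 1 of 5, miR-16-5p, beside 63 of 267 (23.6%). In 200M against 200H ranges were apart in either direction for 2 of 5, miR-497a-5p and miR-15b-5p, beside 51 of 274 (18.6%). Medians of the log2 fold change for the members and for all miRNAs tested were 0.02 and 0.00 for 200M against WT, 0.03 and 0.00 for 200H against WT, and −0.00 and 0.02 for 200M against 200H. The median size of the members' change for 200M against WT was 0.14 beside 0.33 for all miRNAs tested. In the young cohort it was 0.39 beside 0.33 with all libraries and 0.11 beside 0.27 without WT replicate 1.

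**Figure D2:**
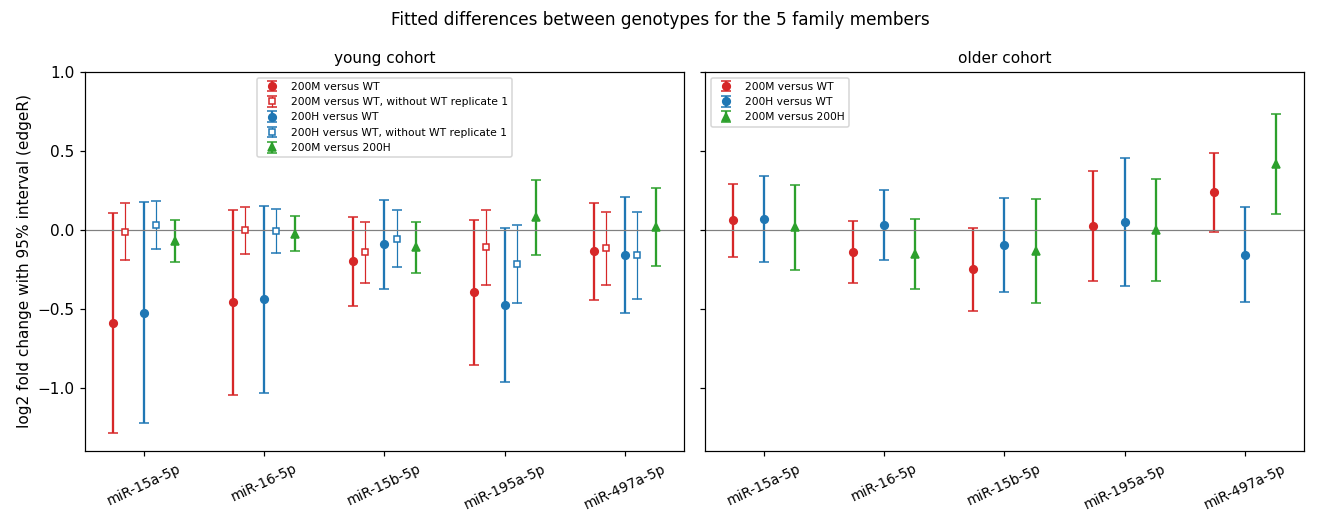
Log2 fold changes of the members from edgeR with 95% intervals, young cohort left and older cohort right. Filled circles compare each mutant with WT, triangles compare 200M with 200H, and open squares repeat the young comparisons with WT without WT replicate 1. Without that library the young values of miR-15a-5p and miR-16-5p move to between −0.01 and 0.03. The interval of miR-497a-5p for older 200M against 200H, 0.10 to 0.73, is the 1 interval of the 6 comparisons with all libraries that does not include 0.

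Whether a genotype difference itself differed between the cohorts was tested in edgeR as an interaction, over names common to both lists. For 200M against WT it called 0 of 5 members and 0 of 487 miRNAs (0%), and at an unadjusted p below 0.05 it counted 0 members and 30 miRNAs. For 200H against WT it called 0 of 5 members and 0 of 491 miRNAs, with 0 members and 28 miRNAs at an unadjusted p below 0.05. DESeq2 also called 0 members in both, with 1 and 0 members at an unadjusted p below 0.05. The matching shares of all miRNAs are not given for DESeq2. Estimates for the members, older minus young, ran from −0.16 for miR-15b-5p to 0.57 for miR-15a-5p in 200M, and the 95% interval of the latter was −0.21 to 1.35. In 200H they ran from −0.04 for miR-15b-5p to 0.56 for miR-15a-5p. Without young WT replicate 1 the estimates for miR-15a-5p were 0.09 in 200M and 0.02 in 200H, and again 0 members were called.

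Ratios within a library do not depend on how libraries are scaled. The neighbours on chromosome 11, miR-195a-5p and miR-497a-5p, stood at a ratio of 1.65 to 1.84 in 10 young libraries and 2.83 in WT replicate 1. In 200H replicate 3, where both were low, the ratio was 1.75, so they were low together. In older libraries the ratio ran from 0.712 to 1.57, with 0.953, 0.712, 1.57 and 0.889 in WT, 1.21, 1.25 and 1 in 200H, and 0.929, 0.870 and 0.783 in 200M. The 200M libraries lay below the 200H libraries, WT overlapped both, and the ratio was not tested. Young and older ratios did not overlap, and the differences between the cohorts named above cannot be told apart here either.

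The ratio of miR-16-5p, which comes from both of its loci, to miR-15a-5p was 2.88 to 3.55 in the young cohort and 2.96 to 4.47 in the older one. The paralogues miR-15a-5p and miR-15b-5p stood at 2.22 to 2.84 in 10 young libraries and at 5.47 in WT replicate 1. Relative to miR-15a-5p, WT replicate 1 thus held less miR-15b-5p than any other young library. The ratio of miR-15a-5p and miR-16-5p together to the chromosome 11 pair was 7.54 to 10.7 in 9 young libraries, 12.6 in WT replicate 1 and 12.4 in 200H replicate 3.

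Passenger strands, the arms of each hairpin that are mostly discarded, tell the *Mir16-1* and *Mir16-2* loci apart because their sequences differ. They are printed from RefSeq GRCm38.p6 for that reason, all in lower case.

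miR-16-1-3p: ccaguauugacugugcugcuga

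miR-16-2-3p: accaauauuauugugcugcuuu

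MiR-16-1-3p was counted at 1.05, 4.16 and 4.54 CPM in young WT, 4.19, 4.43, 3.77 and 5.03 in 200H, and 5.52, 5.15, 7.06 and 4.58 in 200M. MiR-16-2-3p was counted at 0.786, 21.9 and 19.5 CPM in young WT, 16.1, 17.7, 23.5 and 21.05 in 200H, and 14.4, 18.3, 18.6 and 17.5 in 200M. In every young library but WT replicate 1, which held 4 and 3 counts, miR-16-2-3p from chromosome 3 exceeded miR-16-1-3p from chromosome 14, with a ratio of the latter to the former of 0.160 to 0.384. That ratio was 0.190 and 0.233 in the other WT libraries, 0.160 to 0.261 in 200H and 0.261 to 0.384 in 200M, and it was not tested. Stability of passenger strands differs between hairpins, so their ratio does not give the share of miR-16-5p from each locus.

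All 6 passenger strands passed the filter in the young cohort. EdgeR called 0 of 6 in each of the 3 young comparisons, and 0 had an unadjusted p below 0.05. DESeq2 and voom called 0 as well, with 0 and 1 at an unadjusted p below 0.05 for each mutant against WT. The shares of all miRNAs at that p are not given for these tools, so these counts stand without a background. Over all miRNAs DESeq2 and voom called 87 and 184 in 200M against WT, and 66 and 152 in 200H against WT. In 200M against 200H they called 20 and 15. CPM ranges were apart and higher for 2 of 6 in 200M against WT and for 1 of 6 in 200H against WT, beside 30.5% and 28.4% of all miRNAs apart and higher. Median log2 fold changes were 0.03, 0.09 and −0.02 for 200M against WT, 200H against WT and 200M against 200H, and without WT replicate 1 the medians against WT turned to −0.17 in both mutants. CPM ranges were then apart for 3 of 6 in 200M, 2 higher and 1 lower, beside 47.9% of all miRNAs, and for 1 of 6 in 200H, beside 44.3%. Without WT replicate 1 edgeR called 0 of 6 for either mutant against WT, beside 23.9% of all miRNAs in 200M and 21.6% in 200H. At an unadjusted p below 0.05 it counted 1 in each, and the share of all miRNAs at that p is not given. The lowest value in 200M was then that of miR-16-2-3p, at −0.43 (95% interval −0.77 to −0.10, adjusted p = 0.0619 by edgeR and Benjamini-Hochberg).

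Guide strands exceeded passenger strands in every young library. The median ratio over 11 libraries was 114 for miR-15a, 56.4 for miR-15b, 297 for miR-195a and 49.9 for miR-497a, and 548 for miR-16-5p over both of its passenger strands. WT replicate 1 had the highest ratios of all for miR-15a (714), miR-15b (91.45), miR-497a (147) and miR-16 (8236, on 7 passenger counts). In the older cohort the passenger strands had at most 11 counts in a library and 0 of 6 passed the filter in each comparison. MiR-16-1-3p had 4 counts over the 10 older libraries, all in WT, and 0 in the 6 mutant libraries, where 3 counts would be 22.8 to 49.97 CPM. It entered the test of a cohort difference with the young counts included, and its adjusted p for 200M was 0.685 by edgeR and Benjamini-Hochberg. No size of change is read from that fit, because the older mutants held 0 counts.

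Beside the members, 5 mouse miRNA names carry the same seed, and a wider group shares 6 of its bases. Of these, miR-195b, miR-6342, miR-6353 and miR-6419 had 0 counts in all 21 libraries, which allows up to 0.278 to 0.786 CPM in young and 15.7 to 49.97 CPM in older libraries (3 counts). Those that passed the filter were miR-322-5p, miR-503-5p and a joint entry for miR-103-3p and miR-107-3p in the young cohort, and miR-322-5p in the older one. MiR-103-3p and miR-107-3p were not analysed here in the older cohort. MiR-322-5p and miR-503-5p are shown because they were the relatives whose calls changed with the setting, and their hairpins lie within 366 bp of each other on the X chromosome. Capitals mark the bases they share with the seed of the members.

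miR-322-5p: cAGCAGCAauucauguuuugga

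miR-503-5p: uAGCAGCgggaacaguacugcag

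MiR-322-5p was at 118, 70.6 and 68.0 CPM in young WT, 82.0, 92.2, 104 and 92.5 in 200H, and 109, 110.2, 106 and 132 in 200M. Without WT replicate 1, which was high, every mutant library was above WT and every 200M library was above every 200H library. Of all miRNAs, 36.0% in 200M and 32.9% in 200H were then apart and higher than WT. In 200M against 200H, 5.93% were apart and higher. MiR-503-5p was at 1.83, 10.5 and 12.4 CPM in young WT, 15.97, 17.6, 20.3 and 14.9 in 200H, and 21.9, 26.5, 16.9 and 22.8 in 200M. All mutant libraries were above all WT libraries, and 200H and 200M overlapped. With all libraries, 30.5% of all miRNAs in 200M and 28.4% in 200H were apart and higher than WT.

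EdgeR called 0 of 3 seed relatives in each young comparison and 0 of 1 in each older one. At an unadjusted p below 0.05 it counted 1 in young 200M against WT, 1 in young 200M against 200H, and 0 in the other 4 comparisons. For young 200M against WT, DESeq2 called 1 and voom called 2, and both called 0 in the other comparisons. Over all miRNAs in that comparison DESeq2 called 87 and voom 184, where edgeR called 44. MiR-503-5p had a log2 fold change of 1.08 in that comparison (SE 0.377, 95% interval 0.22 to 1.94, adjusted p = 0.142 by edgeR and Benjamini-Hochberg), which fails the correction. Its adjusted p values over the alternatives ran from 0.0137 to 0.302 with edgeR, DESeq2 and voom, each with Benjamini-Hochberg adjustment. MiR-322-5p had −0.08 (95% interval −0.88 to 0.72).

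Leaving out WT replicate 1, edgeR called 2 of 3 in 200M against WT, both higher. Of all miRNAs it then called 94 of 703 higher, and 23.9% in either direction. MiR-322-5p then rose by 0.56 on the log2 scale (95% interval 0.30 to 0.83, adjusted p = 0.00563 by edgeR and Benjamini-Hochberg) and miR-503-5p by 0.79 (0.36 to 1.22, adjusted p = 0.0137 by edgeR and Benjamini-Hochberg). Adjusted p values for miR-322-5p over the alternatives ran from 0.00563 to 0.970 with the same tools and adjustment. In 200H the values without that library were 0.29 and 0.47, with 0 of 3 called and 2 at an unadjusted p below 0.05, with adjusted p = 0.0936 and 0.0849 by edgeR and Benjamini-Hochberg. Of all miRNAs 21.6% were called there, and the share at that unadjusted p is not given. MiR-103-3p and miR-107-3p, which carry the 6 shared bases from base 1, were at a joint level of 5017 to 5849 CPM in WT, 5454 to 5790.4 in 200H and 5856 to 6654 in 200M. The log2 fold changes of this entry were −0.27 in 200M and −0.34 in 200H against WT, and 0.07 and −0.02 without WT replicate 1.

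Likeness to miR-16-5p was measured as the root mean square difference of centred log2 TMM-scaled CPM over the libraries of a cohort, where 0 means the same profile. Over the 11 young libraries the 3 nearest of 500 miRNAs were miR-410-3p at 0.0525, miR-339-3p at 0.0632 and miR-1198-5p at 0.0650, and miR-15a-5p followed in 4th place at 0.0731. The median over all was 0.409, miR-195a-5p came 83rd, miR-15b-5p 139th and miR-497a-5p 188th. Over the 10 older libraries the 3 nearest of 160 were let-7g-5p at 0.0858, miR-24-3p at 0.0918 and let-7b-5p at 0.102. There miR-15b-5p came 7th, miR-15a-5p 33rd, miR-497a-5p 69th and miR-195a-5p 77th, with a median of 0.259 over all. None of the 3 nearest was shared by the cohorts, and the young profile includes WT replicate 1.

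Marker miRNAs of other cells moved between the genotypes while the members were not called. Of the neuron and brain markers, edgeR called 2 of 4 higher in young 200M and 2 of 4 higher in young 200H than in WT, in each case the 2 listed forms of 1 miRNA, miR-124-3p, while miR-128-3p and miR-9-5p were not called. It called 2 of 3 higher in older 200M and 1 of 3 higher in older 200H than in WT, and in 200M against 200H it called higher only miR-124-3p in either cohort, 2 of 4 and 1 of 3. Of all miRNAs, 2.65% and 1.64% were called higher in young 200M and 200H than in WT, and 20.3% and 4.87% in older 200M and 200H. In 200M against 200H these shares were 0.741% in the young and 0.365% in the older cohort. The neuron and brain markers summed to 902, 1964 and 2163 CPM in young WT, 4732 to 5257 in 200H and 5655 to 8143 in 200M. In the older cohort the sum was 1676 to 2416 in WT, 4414 to 5985 in 200H and 9377 to 9787 in 200M. The most abundant was miR-124-3p, listed in the young cohort as separate forms of which miR-124-3p.1 was the highest. Every marker found in a cohort had a count there. The red blood cell marker miR-486a/b-5p was found in the young list only.

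Of the endocrine markers, 0 of 2 were called in each young comparison with all libraries, and 2 of 2 were called lower in older 200M and 1 of 2 lower in older 200H than in WT, beside 43 of 276 (15.6%) and 19 of 267 (7.12%) of all miRNAs called lower. Their sum was 238998 to 258821 CPM in older WT, 211629 to 228703 in 200H and 195432 to 213165 in 200M. MiR-7a-5p had the higher mean in older 200H and 200M. In older WT miR-375-3p was higher, with a mean of 127759 CPM against 122138 for miR-7a-5p. In bulk tissue, fewer cells of a type and less RNA per cell cannot be told apart. In older 200M against WT edgeR also called higher 1 of 2 tested red blood cell markers, 2 of 4 white blood cell markers, 1 of 1 endothelial marker and 2 of 2 smooth muscle markers, beside 56 of 276 miRNAs called higher (20.3%). In older 200H against WT 0 of these were called, and in young 200M against WT 1 of 2 smooth muscle markers was called higher, beside 18 of 678 miRNAs (2.65%).

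Without young WT replicate 1 more markers were called. In both mutants 3 of 4 neuron and brain markers were then higher than in WT, miR-9-5p joining the forms of miR-124-3p, and 1 of 2 endocrine markers, miR-375-3p, was lower. One of 2 smooth muscle markers, miR-145a-5p, was higher in both, and of 5 white blood cell markers 1 was higher in 200M and 2 were higher in 200H. Over all miRNAs edgeR then called 94 of 703 higher and 74 lower in 200M, and 74 of 699 higher and 77 lower in 200H.

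Older miR-497a-5p was high in the same 3 libraries as the smooth muscle markers, whose sum was 3669 to 4091 CPM in WT, 4464 to 5163 in 200H and 6217, 5564 and 5659 in 200M, with miR-145a-5p the most abundant. The white blood cell sum was 583 to 948 CPM in WT, 966 to 1165 in 200H and 1699.65, 1417 and 1865 in 200M, with miR-142-3p the most abundant. The neuron and brain sum was also highest in these 3 libraries. It was 9377 to 9787 CPM there, 4414 to 5985 in 200H and 1676 to 2416 in WT. The part of any of these cells in the miR-497a-5p values was not tested. In the young cohort, 200H replicate 3 was low in miR-195a-5p and miR-497a-5p and also in miR-143-3p, at 591 CPM beside 1468 to 2008 in the other 200H libraries. Its miR-145a-5p, at 1426 CPM, was also the lowest of young 200H. In young 200M replicate 3 the smooth muscle markers went opposite ways, with miR-143-3p at 26.1 CPM, the lowest of its group, and miR-145a-5p at 1994 CPM, the highest, and there miR-195a-5p at 1242 CPM and miR-497a-5p at 730.3 CPM were not low.

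The red blood cell sum was 5292 to 9781 CPM in young WT, 8591 to 18824 in 200H and 9533 to 11282 in 200M, and 5767 to 8364, 6727 to 8711 and 7198 to 10871 CPM in older WT, 200H and 200M. Its most abundant miRNA was miR-451a. Young 200H replicate 2, the highest in this sum, was also the highest in miR-15b-5p, and in older WT replicate 2, the highest WT library in it, miR-16-5p was the lowest. Older 200H replicate 3, however, was the highest of its group in this sum, at 8711 CPM, and the highest of all 10 older libraries in miR-16-5p. The part of red blood cells in the members' levels was not tested.

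Several limits apply to all of these values. Groups of 3 or 4 libraries leave wide intervals, and a member that was not called is not shown to be unchanged. Depth of the older libraries allows no reading of the passenger strands. The fitted differences of miR-15a-5p, miR-16-5p and miR-195a-5p against young WT depend on 1 library, and why it stands apart was not tested. The reads were matched over their first bases only, so the 3′ ends and any longer or shorter forms of a member were not seen. Levels are relative to all counted miRNAs of a library, and an equal change of all miRNAs would not be seen. Whether any target of the family changed was not analysed here.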

How the data were processed

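Small RNA of whole pituitary was sequenced by the authors in 21 libraries. The counts deposited in 6 tables were made by the authors: adaptors were trimmed with cutadapt, reads with low-quality bases were removed, and the first 19 bases of each read (young cohort) or the first 18 (older cohort) were matched to a list of mouse miRNAs. The 21 libraries stand in more than 1 table each, with identical counts, and each was used once. The 42 scaled columns and 36 columns of the authors' own comparisons were not used here.

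The members were found by name, with miR-497-5p of the older list read as miR-497a-5p. The members and lists were chosen with earlier results of these data known. Named beside the members are their 6 passenger strands, seed relatives that pass the filter, the defining and most abundant markers, and the 3 miRNAs most like miR-16-5p in each cohort among those with a mean of at least 50 counts.

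Raw counts of each pair of genotypes were fitted within a cohort with edgeR 4.0.16 in R 4.3.3 (TMM scaling, filterByExpr at 10 counts and 15 in total, quasi-likelihood F test, Benjamini-Hochberg threshold 0.05). Cohort differences were fitted on names shared by both lists. The code was tested on simulated data. Alternatives were DESeq2 1.42.0, its size factors, no filter, a common fit of 3 genotypes, limma 3.58.1 voom with sample quality weights, a replicate block, and each library left out. Depth sets the precision: 3 counts are 0.278 to 0.786 CPM in young and 15.7 to 49.97 CPM in older libraries.

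Whether replicate numbers pair the libraries was checked on deviations from group means. Only for older 200H and WT did every pair exceed a correlation of 0.1 (0.112, 0.100 and 0.190). Of these pairs only replicate 4 was the best match for both of its libraries. In young 200M and 200H the pair of replicate 3 reached 0.218. The labels state no pairing, and none is read from these values. No library duplicated another (0 pairs).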

Additional observations from a re-analysis of the deposited data

Results flagged for a closer look

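In groups of 4 libraries, a library was marked when its gap to the nearest other one was a large share of the group's range (Dixon's ratio, 5% level). Chance alone marks about 1 in 20 groups, 70 groups were examined, and 12 were marked, each given here as a value only. In young 200H, replicate 3 was the lowest in miR-497a-5p (ratio 0.938), in miR-195a-5p (0.845) and in the joint entry of miR-103-3p and miR-107-3p (0.895), and replicate 2 was the highest in miR-15b-5p (0.971). In young 200M, replicate 1 was the lowest in miR-15b-5p (0.874), replicate 3 was the lowest in the endothelium markers (0.860) and in miR-143-3p (0.877), and replicate 4 was the highest in miR-322-5p (0.844). In older WT, replicate 2 was the lowest in the family sum (0.962) and in miR-16-5p (0.847), and the highest in miR-451a (0.966) and in the red blood cell markers (0.908). Entries of 1 library are not independent of each other, and their causes were not tested. Groups of 3 libraries, young WT among them, were not examined in this way.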

How the results depend on the processing

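The count of members called was 0 in all 112 combinations of comparison and other setting. Of 350 member log2 fold changes with a library left out 32 lay on the other side of 0, and of 210 under other settings 9 did, the largest of these in the original fit being 0.52 in size. For passenger strands these were 23 of 132 and 10 of 108, with 0 called. The replicate block called 0 members in each comparison, and it moved the count of all miRNAs called from 44 to 20 in young 200M against WT, from 34 to 18 in young 200H against WT and from 32 to 47 in older 200H against WT.

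Seed relatives called in young 200M against WT were 0 with edgeR, 1 with DESeq2, 1 with a common fit of 3 genotypes, 2 with voom and 0 to 2 with a library left out. The log2 fold change of miR-322-5p there was −0.08, against 0.48 with voom and −0.31 to 0.56 with a library left out, the highest without WT replicate 1; beyond that library's weight, the cause was not tested. TMM-scaled means of the family sum were 25048 in young WT (19789 in CPM), 18630.1 in young 200H (19671), 18349 in young 200M (20000.4), 22868 in older WT (21036) and 21976 in older 200M (23611), the difference being the TMM factors. All miRNAs called in young 200M against WT ranged from 25 to 168 with a library left out and reached 184 with voom, so the make-up of young WT limits every comparison with it. In older libraries 3 counts are 15.7 to 49.97 CPM, which limits what can be read below that level.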
